A study of Mus musculus with 10 samples.

Results

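Long noncoding RNA genes that were expressed in splenic B cells are described here in mice with liver fibrosis and in wildtype control mice. The genes were chosen by annotation and level: those given the lincRNA biotype in the deposited count table, with a mean of at least 1 FPKM over all 10 libraries, leaving out Gas5, the Snhg genes and the sex chromosomes. FPKM is the deposited unit that divides reads by gene length and library size, so levels of different genes are compared on that scale. This gave 185 genes of 54532 in the table and of 5559 with the biotype. The values that chose the genes took both groups together, and their mean levels are given as a description only.

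The fibrosis group (5 libraries) came from mice given carbon tetrachloride, a solvent that injures hepatocytes, by intraperitoneal injection for 4 weeks, and the controls (5 libraries) were wildtype mice. The sources used here do not give the strain, age or sex, any vehicle the controls had, or the way B cells were isolated. The labels do not say that each library is a separate animal, so p-values measure the spread between these libraries. Libraries held 13439100 to 17954551 counts, and all 12 B cell identity genes listed (Pax5, Cd79a, Ebf1 and others) were expressed, with a summed level of 18426 to 27113 CPM (counts scaled by TMM library size) in fibrosis and 15378 to 17533 CPM in control.

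Long noncoding RNAs are transcripts that do not carry a conserved long reading frame. Some stay in the nucleus and build or occupy nuclear bodies, some bind proteins or microRNAs, some are the precursors from which microRNAs are cut, and for many the act of transcription near a coding gene is the only known feature. Most are low in level and vary more between cell types than coding genes do. Libraries of polyadenylated RNA, as used here, hold polyadenylated host transcripts and not the mature microRNAs.

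The 185 genes were mostly uncharacterised: 110 carried predicted or clone-based symbols (Gm, AC or CT) and 52 Riken symbols. Their listed exon length ran from 252 to 20771 bases with a median of 1368, their median number of exons was 2, and 32 had a single exon. RefSeq held 111 of them by symbol, 102 as lncRNA genes and 7 as protein-coding genes (Gpr141b, 1810058I24Rik, Gm46430, Gm6712, Tmem250-ps, Gm39469 and Lsmem2). Exons of 39 members overlapped exons of another gene, and for 9 this covered over 50% of the exonic bases. The sources used here do not say whether counting was by strand. Reads in the overlapping bases may not have been told apart from those of the other gene, which was not tested.

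Levels were low for most members. The mean over all libraries ran from 1.00 to 99.7 FPKM with a median of 1.87, 98 members lay between 1 and 2 FPKM, and 16 reached 10 FPKM. The 5 highest by this measure were Gm10076, Mir142hg, AW112010, AU020206 and Malat1. The listed length of Mir142hg is 269 bases and that of Gm10076 384 bases, so that 85.6 FPKM of Mir142hg rest on 18.6 CPM in fibrosis and 27.9 CPM in control, and 99.7 FPKM of Gm10076 on 46.0 CPM in fibrosis and 31.1 CPM in control. Malat1, with 6983 bases, reached 48.7 FPKM from 347 CPM in fibrosis and 341 CPM in control. Just inside the level that defined the set were 1700020N18Rik (1.00 FPKM), Gm49201 (1.00 FPKM) and 1700009J07Rik (1.01 FPKM), and just outside it Rbakdn (0.999 FPKM), Gm47792 (0.986 FPKM) and Gm47467 (0.979 FPKM). In the fibrosis mean alone 12 members lay under 1 FPKM, and in the control mean alone 26 did. These 38 entered through the group in which they were higher.

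Of the 185 members, 174 passed the filter on low counts and were tested with all other genes. The other 11 held 65 to 98 counts over all libraries. By edgeR's quasi-likelihood test, at an adjusted p under 0.05 over 14283 genes, 41 members were higher in fibrosis and 15 were lower. The 56 calls were 32.2% of the tested members, where 35.7% of all tested genes were called, so the share called was near the background. The higher calls were 23.6% of the tested members (18.6% of all tested genes) and the lower calls 8.62% (17.2% of all tested genes). The median log2 fold change, fibrosis minus control, was 0.26 for the tested members and 0.05 for all tested genes. Since 26 members passed the level threshold through fibrosis and 12 through control, the choice of members bears on these shares: of the 140 tested members over 1 FPKM in both group means, 32 were higher and 9 lower. In bulk RNA, a change in the fraction of a cell type and a change in RNA per cell cannot be told apart.

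**Figure D1:**
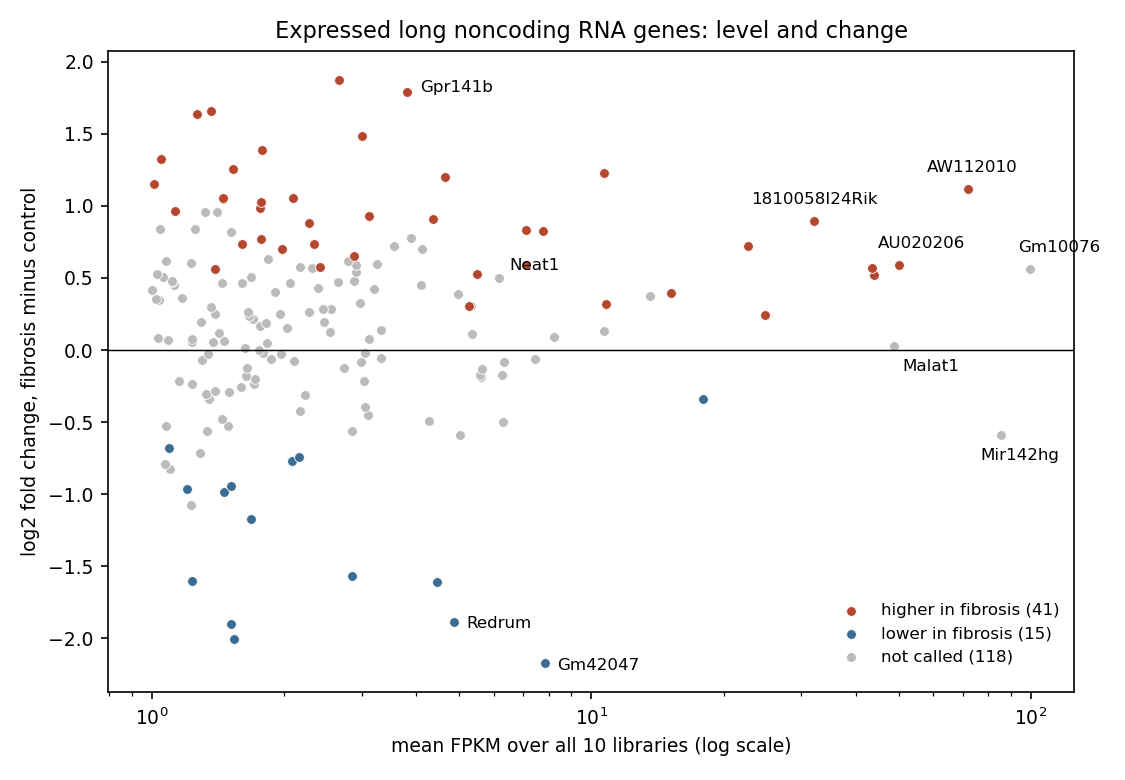
Each point is 1 tested long noncoding RNA gene, placed by its mean FPKM over all 10 libraries (log scale) and its log2 fold change, fibrosis minus control; red points were called higher in fibrosis, blue points were called lower, and grey points were not called. The 41 higher calls reach up to 1.87, the 15 lower calls reach down to -2.17, and Malat1 lies at 0.03.

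The change was at least 2-fold in 16 members called higher (3.80% of all tested genes were called so) and in 8 called lower (5.38% of all tested genes). All 5 fibrosis libraries lay above all 5 control libraries in 21 members (11.4% of all tested genes did so) and below them in 12 members (14.0% of all tested genes). The 118 tested members that were not called had log2 fold changes between -1.08 and 0.96, and 81 of them had a mean under 5 CPM. The median SE on the log2 scale was 0.29 over the 110 tested members under 5 CPM and 0.18 over the other 64, beside 0.14 for all tested genes. Among the 29 members with at least 10 CPM, 15 were higher and 2 lower (58.6% called, where 39.9% of all 9290 tested genes at that level were called).

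The split between directions moved with scaling and with the libraries used. With library size only, 28 members were higher and 20 lower, so that higher calls were 58.3% of all member calls in place of 73.2%. Over all tested genes the share of higher calls moved likewise, to 35.0% in place of 52.0%, and the median of all tested genes moved by -0.11 on the log2 scale. Fibrosis libraries 4 and 5 differed from fibrosis 1 to 3 in markers of other cells. Platelet genes summed to 1364 and 1418 CPM in fibrosis 4 and 5, against 343 to 825 CPM in fibrosis 1 to 3 and 202 to 251 CPM in control. Neutrophil genes summed to 3608 and 4529 CPM in fibrosis 4 and 5, against 372 to 1441 CPM in fibrosis 1 to 3 and 600 to 1692 CPM in control. Macrophage genes summed to 4963 and 5515 CPM in fibrosis 4 and 5, against 1619 to 2887 CPM in fibrosis 1 to 3 and 3023 to 4968 CPM in control. B cell identity genes summed to 18762 and 18426 CPM in fibrosis 4 and 5. Their sum was 22024 to 27113 CPM in fibrosis 1 to 3 and 15378 to 17533 CPM in control. With all libraries 6 of these 12 genes were higher and 0 lower, where 18.6% of all tested genes were higher. In the fit without fibrosis 4 and 5 all 12 were higher (18.4% of all tested genes were). Without these 2 libraries, 26 of 179 tested members were higher (18.4% of all tested genes were) and 19 lower (18.8% of all tested genes were). In both directions the share of members was below that of all tested genes. All 15 members called lower with all libraries, and 25 of the 41 called higher, were called again in the same direction.

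The gene with the largest fall was Gm42047, a gene of 4 exons (chr8:121833247-121841178, plus strand, GRCm38). It had 10.7, 21.7, 22.7, 14.9 and 10.4 CPM in fibrosis libraries 1 to 5, against 82.1, 75.7, 64.4, 60.2 and 81.2 CPM in control libraries 1 to 5. No fibrosis library came near the lowest control. This was a log2 fold change of -2.17 ± 0.22 (SE; adjusted p = 3.14e-05 by edgeR). Klhdc4, a gene of kelch repeats that starts 3678 bases away on the other strand, was at -0.17 ± 0.07 (adjusted p = 0.0817). A stretch of 64.2% of the Gm42047 transcript has a near-identical copy in Gm48362, which had 0.0159 CPM in fibrosis and 0.0113 CPM in control. Gm48362 is the best match of 4 genes that each hold a copy of at least 50% of the transcript. Levels of the others were not looked at, so the part of copies in the counts of Gm42047 was not tested.

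Redrum is an erythroid long noncoding RNA known in mouse for its part in red cell maturation. It had 4.40, 2.53, 4.79, 5.63 and 1.17 CPM in fibrosis 1 to 5, against 13.3, 13.7, 11.1, 11.5 and 18.5 CPM in control 1 to 5. The groups did not overlap, and the log2 fold change was -1.88 ± 0.32 (adjusted p = 0.000695 by edgeR). Of the erythroid marker genes, 9 of 14 tested (Sptb, Ank1 and others) were lower and 0 higher, where 17.2% of all tested genes were lower. The globin genes Hba-a2 (1.20), Hbb-bs (0.34) and Hbb-bt (0.08) had a positive sign and did not pass. Hba-a1 (-0.41) and Alas2 (-0.51) did not pass either. The erythroid marker genes summed to 2111, 1144, 2457, 8256 and 3489 CPM in fibrosis 1 to 5 and 4891 to 7736 CPM in control. Fibrosis 4 had the highest Redrum level and the highest erythroid sum of the fibrosis libraries. Fibrosis 5 had the lowest Redrum level and the next highest sum. Much of that sum was globin, which was not called: Hba-a1 averaged 1043 CPM and Hbb-bs 992 CPM over the fibrosis libraries. The part of erythroid cells in the fall of Redrum was not tested.

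Other uncharacterised members fell by a similar amount at lower levels. 1700001L05Rik (chr15:83353847-83367282, minus strand) had 4.58, 3.51, 4.55, 4.05 and 2.93 CPM in fibrosis 1 to 5, against 16.8, 12.5, 12.5, 12.2 and 19.4 CPM in control 1 to 5. Its log2 fold change of -1.90 ± 0.18 (adjusted p = 1.76e-05 by edgeR) came with little spread among the fibrosis libraries. 5430401H09Rik averaged 2.23 ± 0.935 CPM over the fibrosis libraries and 6.73 ± 1.23 CPM over the controls (SD, n = 5 each), a log2 fold change of -1.60 ± 0.25. 1700063H04Rik averaged 0.489 ± 0.326 CPM in fibrosis and 2.02 ± 0.407 CPM in control, a change of -2.01 ± 0.38 that rests on few reads. These 3 genes, with Gm33280, AI427809 and Gm10451, had a fibrosis mean under 1 FPKM and entered the set through the controls, in which they were higher, so the choice of members bears on their direction.

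Among the falls of smaller size that kept the groups apart were those of Gm33280 (-0.99 ± 0.21), AI427809 (-0.96 ± 0.20), 4933404O12Rik (-0.77 ± 0.12) and 1700086O06Rik (-1.17 ± 0.28). 4933404O12Rik was the steadiest, with 6.44 to 8.14 CPM in fibrosis and 11.0 to 13.7 CPM in control. For 1700086O06Rik the 5 fibrosis libraries spread from 0.678 CPM in fibrosis 2 to 3.01 CPM in fibrosis 4, against 4.13 to 4.75 CPM in control. Its span overlaps that of Dele1 (-0.56 ± 0.11, adjusted p = 0.00203 by edgeR), which encodes a mitochondrial stress relay protein, on the opposite strand. No other gene held a near-identical copy of more than 43 bases (3.50%) of the longest 1700086O06Rik transcript. How far reads of 1700086O06Rik and Dele1 were kept apart in counting was not tested.

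Lockd, a transcript made just downstream of the cell cycle inhibitor gene Cdkn1b, had 4.77, 4.80, 4.97, 9.60 and 6.12 CPM in fibrosis 1 to 5, against 12.2, 11.7, 9.20, 12.7 and 12.1 CPM in control 1 to 5. Fibrosis 4 lay above the lowest control library, control 3, and the other fibrosis libraries lay below all controls. Lockd was called at -0.95 ± 0.20 (adjusted p = 0.00228 by edgeR). Cdkn1b itself, whose start is 8691 bases away, was at 0.36 ± 0.08 (adjusted p = 0.0041). All 12 tested proliferation genes (Mki67, Mcm5, Ccnb2 and others) were lower in the same libraries, where 17.2% of all tested genes were lower. Their summed level was 1026 to 1526 CPM in fibrosis and 2621 to 3373 CPM in control. Fibrosis 4, highest for Lockd, was also the highest fibrosis library for that sum and for the erythroid sum. Fibrosis 5, next highest for Lockd, had the next highest erythroid sum (3489 CPM) and the lowest proliferation sum (1026 CPM). The relation of the fall of Lockd to proliferation was not tested.

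**Figure D2:**
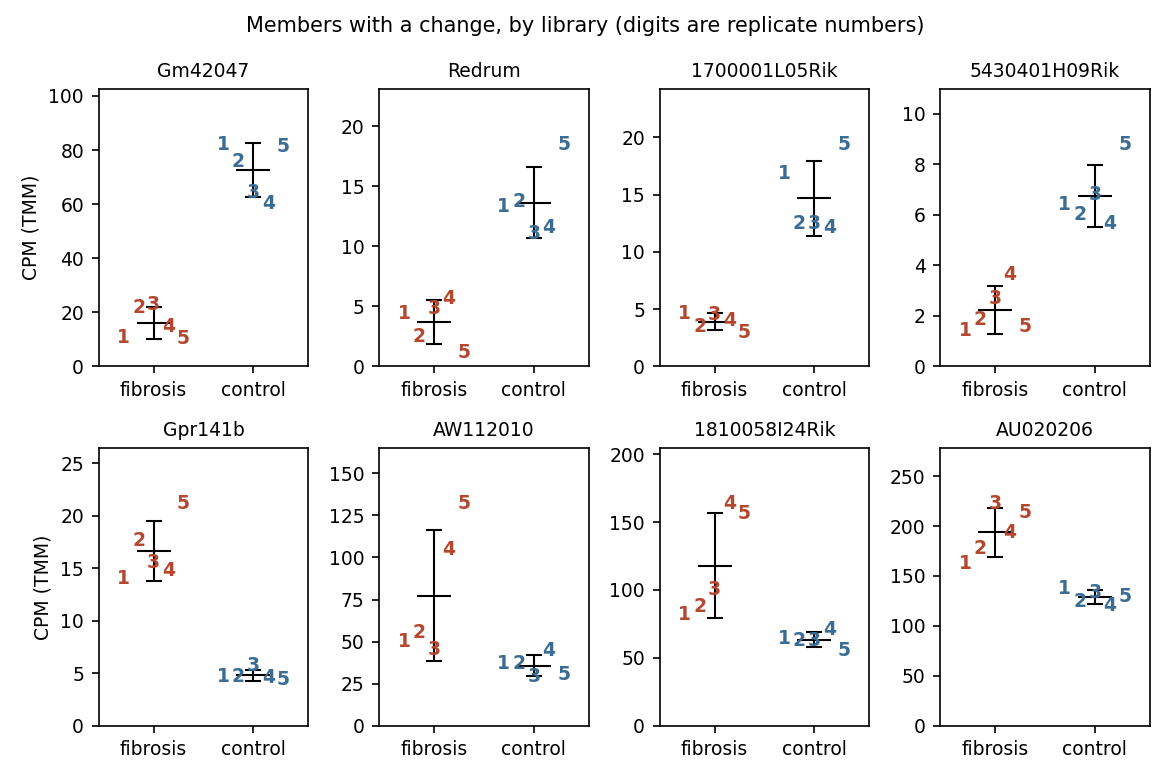
CPM of 8 called genes in each library, with fibrosis left of control; digits are library numbers, and the bars show the mean ± SD of 5 libraries. In the upper row (Gm42047, Redrum, 1700001L05Rik, 5430401H09Rik) all fibrosis libraries lie below all controls, and in the lower row (Gpr141b, AW112010, 1810058I24Rik, AU020206) all lie above them.

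Among the rises in which the groups did not overlap, Gpr141b was the largest. The count table calls it a lincRNA gene, and RefSeq calls it protein-coding, a relative of the orphan G protein-coupled receptor gene Gpr141. It had 14.0, 17.7, 15.6, 14.8 and 21.1 CPM in fibrosis 1 to 5, against 4.65, 4.68, 5.69, 4.58 and 4.36 CPM in control 1 to 5. The lowest fibrosis library was above the highest control by a wide margin, and the log2 fold change was 1.79 ± 0.14 (adjusted p = 1.04e-05 by edgeR). Without fibrosis 4 and 5 it was 1.72, and it lay between 1.33 and 1.86 under all 22 alternatives.

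AW112010 is a transcript induced by inflammatory stimuli in mouse immune cells, from which a protein is translated in macrophages although it is annotated as noncoding. It was the highest in level of the called members, with 97.9 FPKM in fibrosis and 46.2 FPKM in control. The libraries held 49.9, 55.3, 45.1, 105 and 132 CPM in fibrosis 1 to 5, against 37.2, 36.7, 29.1, 44.6 and 30.3 CPM in control 1 to 5. The groups did not overlap, but fibrosis 3 (45.1 CPM) and control 4 (44.6 CPM) met, and fibrosis 4 and 5 lay far above the other fibrosis libraries. The log2 fold change of 1.12 ± 0.29 (adjusted p = 0.0123 by edgeR) was 0.50 without fibrosis 4 and 5 (adjusted p = 0.0107; 0.000228 to 0.0788 over its alternatives). It did not pass with no filter on low counts or with limma on log2 FPKM plus 1 without a filter. Fibrosis 4 and 5 had the highest fibrosis sums of platelet, neutrophil and macrophage genes, given above, and of 10 dendritic cell genes (1860 and 2160 CPM, against 948 to 1315 CPM in fibrosis 1 to 3 and 744 to 971 CPM in control). In all, 9 of 9 platelet, 6 of 10 dendritic cell and 3 of 8 NK cell genes were higher and 0 lower, where 18.6% of all tested genes were higher. Of 11 T cell genes 2 (Lat and Cd8a) were higher and 0 lower, a share near that background, and Cd3e, Cd3d and Cd3g did not pass. By edgeR 0 of 10 neutrophil genes were called (2 at an unadjusted p under 0.05). Likewise 0 of 10 macrophage genes were called (0 at an unadjusted p under 0.05), where 35.7% of all tested genes were called. By DESeq2 also 0 of each were called. Limma voom called 5 macrophage genes and 0 neutrophil genes, where it called 2969 of 14283 genes higher and 2830 lower. Without fibrosis 4 and 5, all 10 macrophage genes were lower by edgeR, where 18.8% of all tested genes were lower. None of the listed platelet or dendritic cell markers was at 0. The 11 T cell genes summed to 86.7 to 157 CPM in fibrosis and 74.1 to 101 CPM in control, and the 8 NK cell genes to 72.8 to 156 CPM in fibrosis and 64.2 to 116 CPM in control. Their part in the rise of AW112010 was not tested.

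1810058I24Rik, named for its level after its values were seen, encodes a small mitochondrial protein and is protein-coding in RefSeq. It too was highest in fibrosis 4 and 5. It had 82.0, 87.6, 101, 164 and 156 CPM in fibrosis 1 to 5, against 64.3, 62.8, 63.1, 70.9 and 55.4 CPM in control 1 to 5. All fibrosis libraries were above all controls, and the log2 fold change was 0.90 ± 0.19 (adjusted p = 0.00266 by edgeR), or 0.52 without fibrosis 4 and 5. The largest fitted rise of any member was that of Gm6634, with 1.89, 3.76, 7.30, 11.8 and 13.9 CPM in fibrosis 1 to 5, against 1.57 to 2.49 CPM in control. Fibrosis 1 lay within the control range, so Gm6634 is named for its size after its values were seen. Its log2 fold change was 1.87 ± 0.45, and 1.05 without fibrosis 4 and 5.

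In 10 of the 41 higher members the 2 highest fibrosis libraries were 4 and 5 (24.4% of them, where 35.0% of all genes called higher had that pair). In 19 members they were fibrosis 3 and 5 (46.3%, where 18.4% of all genes called higher had that pair). The first set included AW112010, 1810058I24Rik, Gm6634, Gm11707, Gm13431, 1700009J07Rik, Epb41l4aos and Gm6712. The second included AU020206, Dubr, Gm15675, Gm19585, Gm30411, AI504432 and 2900097C17Rik. Fibrosis 1 was the lowest fibrosis library in 22 of the 41.

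**Figure D3:**
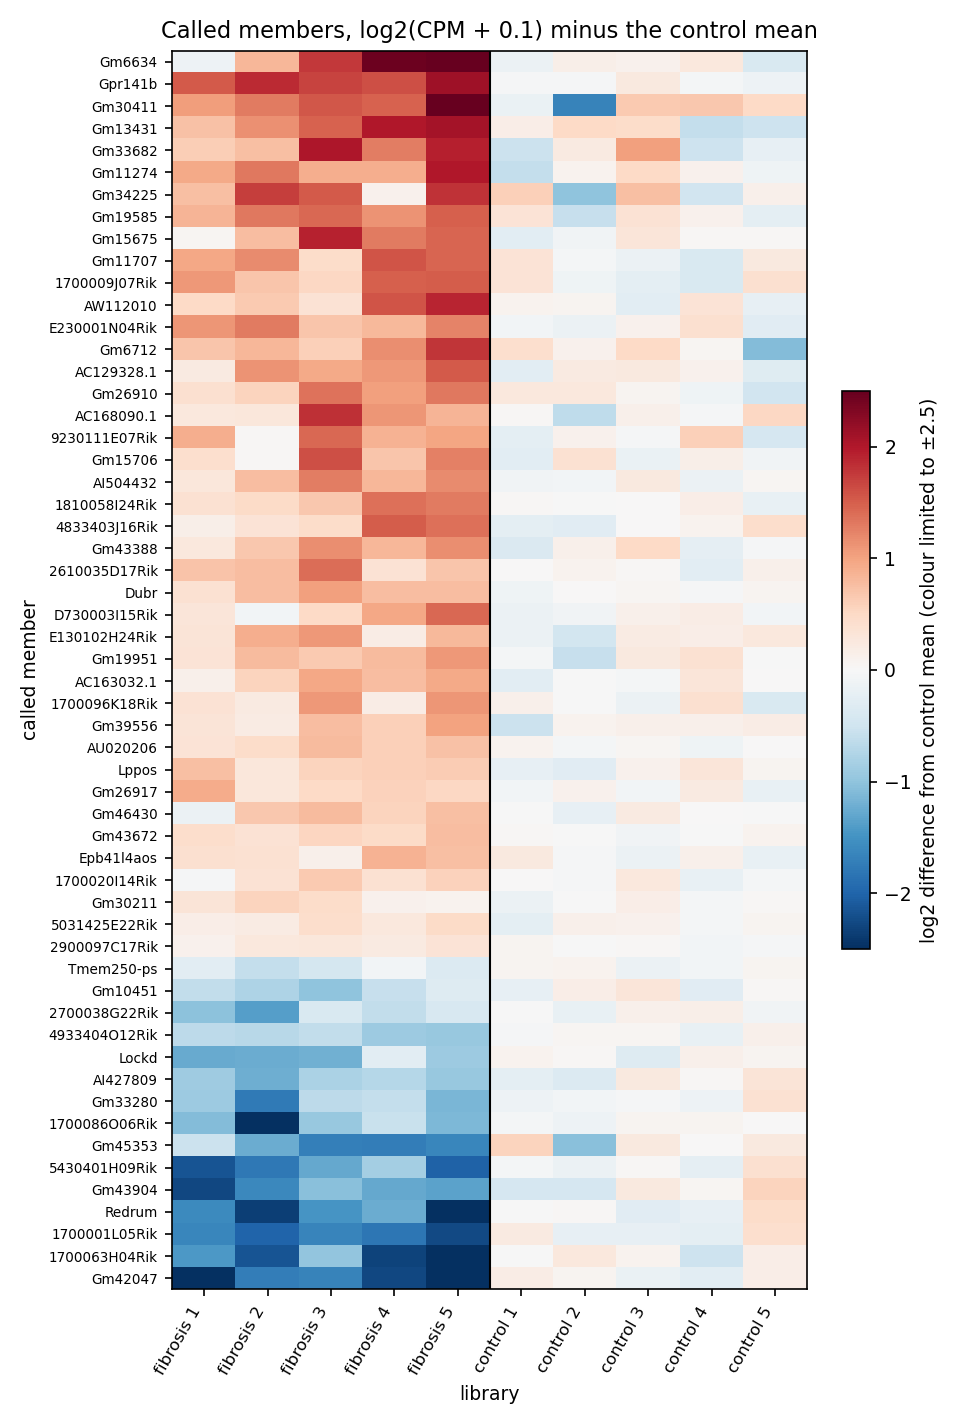
Rows are the 56 called genes, ordered by log2 fold change; columns are the 5 fibrosis libraries and, right of the line, the 5 control libraries; colour is log2(CPM + 0.1) minus the mean of the control libraries, limited at 2.5 in both directions. Among the 41 higher genes fibrosis 1 is the lowest fibrosis library in 22 rows, and fibrosis 5 is the highest in 18 and fibrosis 3 in 15.

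AU020206 (chr7:75769038-75782099, minus strand) combined a high level with little spread. It had 163, 178, 222, 193 and 213 CPM in fibrosis 1 to 5, against 137, 124, 133, 120 and 129 CPM in control 1 to 5. The groups did not overlap, and the log2 fold change of 0.59 ± 0.10 (adjusted p = 0.00047 by edgeR) was 0.55 without fibrosis 4 and 5. Dubr, named after its place upstream of Dppa2, averaged 10.5 ± 1.66 CPM in the fibrosis group and 6.19 ± 0.303 CPM in the controls (SD, n = 5 each), a log2 fold change of 0.77 ± 0.14. It is named here for its known symbol and not by the naming rule.

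Gm19585 (chr17:51986415-52163976, plus strand) starts 153125 bases from Satb1, a chromatin organiser of lymphocytes, on the opposite strand. It had 3.85, 5.36, 5.86, 4.68 and 6.12 CPM in fibrosis 1 to 5, against 2.68, 1.38, 2.71, 2.26 and 1.76 CPM in control 1 to 5. Its log2 fold change was 1.26 ± 0.22 (adjusted p = 0.0008 by edgeR), beside 0.69 for Satb1 (adjusted p = 0.00163). E230001N04Rik, a single-exon gene 5193 bases from Fkbp5, averaged 5.32 ± 0.971 CPM in fibrosis and 2.55 ± 0.499 CPM in control, a change of 1.06 ± 0.19. Fkbp5, a chaperone gene induced by glucocorticoids, was at 0.24 (adjusted p = 0.545).

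The other 6 rises taken by the naming rule (beside Gpr141b, AW112010, Gm19585 and E230001N04Rik) were small in level, each with a mean under 4 CPM in fibrosis. They were Gm30411 (1.66 ± 0.46), Gm13431 (1.64 ± 0.37), Gm11274 (1.39 ± 0.34), Gm11707 (1.20 ± 0.26), 1700009J07Rik (1.15 ± 0.29) and Gm6712 (1.05 ± 0.35). Without fibrosis 4 and 5, Gm30411 was at 1.21 (adjusted p = 0.0509; 3.08e-05 to 0.0509 over its alternatives), 1700009J07Rik at 0.82 (0.0517; 0.00291 to 0.0517) and Gm6712 at 0.66 (0.170; 0.0201 to 0.170), and these 3 calls were lost. Gm6712 lost its call in 8 of 22 alternatives, which included limma voom, the replicate block (adjusted p = 0.0785) and the fits without fibrosis 5, control 2, control 4 or control 5. Of those named, Gm30411, Gm13431, Gm11274, 1700009J07Rik, Gm19585 and E230001N04Rik had a control mean under 1 FPKM and entered the set through fibrosis. Of the Gm6712 transcript 99.2% has a near-identical copy, so its counts are uncertain. Gm11274 lies 11500 bases from the linker histone gene Hist1h1b, which was at 1.26 (adjusted p = 0.00438), and 1700009J07Rik 9119 bases from Lrrc3, at 1.30 (adjusted p = 0.000382). Gm11707 lies 26451 bases from the nuclear import gene Kpna2, which moved the other way, at -0.74 (adjusted p = 0.000111).

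A few further rises are named after their values were seen. 2610035D17Rik had 19.7, 20.3, 31.6, 15.4 and 19.3 CPM in fibrosis 1 to 5, against 12.0, 12.8, 12.2, 9.90 and 13.1 CPM in control 1 to 5. The groups did not overlap, and fibrosis 4 was the lowest fibrosis library. Its log2 fold change was 0.83 ± 0.17 (adjusted p = 0.00211 by edgeR). Gm19951 had 28.7, 39.0, 35.7, 38.9 and 48.2 CPM in fibrosis 1 to 5, against 21.9, 15.2, 26.8, 29.3 and 22.4 CPM in control 1 to 5, so that fibrosis 1 lay below control 4. Its change of 0.72 ± 0.17 (adjusted p = 0.0054) stands beside 0.42 ± 0.12 (adjusted p = 0.0172) for Foxn3, a forkhead factor gene whose start is 79511 bases away on the other strand. Lppos, whose start is 81 bases from that of the adhesion protein gene Lpp and whose exons overlap it, was at 0.58 ± 0.17 (adjusted p = 0.0199), and Lpp at 0.30 ± 0.18 did not pass (adjusted p = 0.208).

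Promoters of 2 called genes are printed because these genes stand for a rise with inflammation as its known context and a fall with little spread, 1700001L05Rik, which entered the set through the controls. The sequences are RefSeq's (GRCm38.p6), from 250 bases before to 50 after the annotated start. Capitals mark GGGNNNNNCC, the outline of an NF-kB site, searched on both strands. For AW112010 the window is chr19:11050517-11050816 (minus strand) and for 1700001L05Rik chr15:83367248-83367547 (minus strand).
AW112010: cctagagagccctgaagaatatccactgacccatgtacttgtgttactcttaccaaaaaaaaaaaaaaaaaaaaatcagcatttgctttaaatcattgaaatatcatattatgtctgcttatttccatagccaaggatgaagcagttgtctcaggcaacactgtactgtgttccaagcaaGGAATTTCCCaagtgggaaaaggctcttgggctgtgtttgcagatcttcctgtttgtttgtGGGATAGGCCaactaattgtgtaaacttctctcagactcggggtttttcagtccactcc
1700001L05Rik: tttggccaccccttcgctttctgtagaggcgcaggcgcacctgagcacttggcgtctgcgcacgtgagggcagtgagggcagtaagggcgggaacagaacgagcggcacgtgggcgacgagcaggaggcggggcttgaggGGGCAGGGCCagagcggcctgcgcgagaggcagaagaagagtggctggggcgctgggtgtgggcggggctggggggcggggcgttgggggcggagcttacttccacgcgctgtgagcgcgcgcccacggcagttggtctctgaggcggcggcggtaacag

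The 2 windows differ in composition. That of AW112010 holds 1 CpG and that of 1700001L05Rik 30 CpGs. The median is 6 over 93 members and 7 over all 27025 genes with a RefSeq promoter, expressed here or not, with 1 promoter taken for each gene. GGGNNNNNCC was found in 54.8% of member promoters and in 50.3% of all promoters, so a match is common. AGATAA, the outline of a GATA factor site, was found in 11.8% of member promoters and 11.3% of all promoters, and GAAANNGAAA, that of an interferon response site, in 3.23% of member promoters and 3.52% of all promoters. Neither window holds either of these. A match is a run of letters and was not tested as a site.

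In 5 members lies the whole hairpin of at least 1 microRNA, on the strand of the host. Of their 20 mature microRNAs 12 are printed from RefSeq (GRCm38.p6), 1 arm of each hairpin and both of miR-142a, because they identify what each host carries, with the seed, bases 2 to 8, in capitals. The hosts are Mir142hg on chromosome 11 (miR-142a), Mir17hg on chromosome 14 (the miR-17-92 cluster), E130102H24Rik on chromosome 4 (miR-101a), 4833445I07Rik on chromosome 9 (miR-191 and miR-425) and 2900076A07Rik on chromosome 7 (miR-1839).
miR-142a-5p: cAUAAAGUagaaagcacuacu
miR-142a-3p: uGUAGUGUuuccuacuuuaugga
miR-17-5p: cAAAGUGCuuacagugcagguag
miR-18a-5p: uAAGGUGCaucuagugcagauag
miR-20a-5p: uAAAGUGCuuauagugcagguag
miR-19a-3p: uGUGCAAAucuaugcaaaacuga
miR-19b-3p: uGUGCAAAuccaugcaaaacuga
miR-92a-3p: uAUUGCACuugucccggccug
miR-101a-3p: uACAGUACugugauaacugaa
miR-191-5p: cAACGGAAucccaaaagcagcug
miR-425-5p: aAUGACACgaucacucccguuga
miR-1839-5p: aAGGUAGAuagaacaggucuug

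Within the cluster, miR-17-5p and miR-20a-5p share the seed AAAGUGC, and miR-19a-3p and miR-19b-3p share GUGCAAA. miR-142 is a microRNA of blood cells, and the miR-17-92 cluster is known to promote survival and proliferation of lymphocytes. What was measured here is the polyadenylated host transcript.

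Mir142hg (chr11:87755577-87757270, plus strand) had 11.1, 11.8, 20.8, 22.3 and 27.1 CPM in fibrosis 1 to 5, against 27.3, 24.8, 30.3, 30.7 and 26.4 CPM in control 1 to 5. Fibrosis 1 to 4 lay below all controls, and fibrosis 5 lay among them. The log2 fold change of -0.59 ± 0.22 did not pass (adjusted p = 0.0520 by edgeR). It passed in 12 of 22 alternatives, among them DESeq2 (-0.62, adjusted p = 0.0153), limma voom (-0.87, 0.00134) and the fit without fibrosis 4 and 5 (-0.93, 0.00249), over a range of 2.64e-05 to 0.0998. The nearest coding gene, Tspoap1, which starts 4964 bases away on the same strand, was lower at -0.76 ± 0.16 (adjusted p = 0.00287).

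Mir17hg had 4.03, 4.37, 9.09, 7.38 and 8.39 CPM in fibrosis 1 to 5, against 8.09, 8.47, 11.9, 8.15 and 7.94 CPM in control 1 to 5. Fibrosis 1 and 2 were far below the controls and the others were among or near them, and the change of -0.42 ± 0.23 did not pass (adjusted p = 0.169). E130102H24Rik averaged 1.86 ± 0.505 CPM in fibrosis and 1.12 ± 0.238 CPM in control, with overlapping groups. Its log2 fold change of 0.73 ± 0.26 passed (adjusted p = 0.0409) but lost its call in 13 of 22 alternatives, among them the fits without any 1 of fibrosis 2, 3 and 5 and of control 1 to 5 (highest adjusted p = 0.147). 4833445I07Rik (-0.24 ± 0.23) and 2900076A07Rik (-0.18 ± 0.27) did not pass.

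Genes of microRNA processing and Pumilio proteins were listed as a group: 2 of 12 were higher (18.6% of all tested genes were) and 3 lower (17.2% of all tested genes), counts near the background (median -0.06 on the log2 scale, 0.05 for all tested genes). Drosha, the nuclease that cuts hairpins from hosts such as these, averaged 39.2 ± 5.69 CPM in fibrosis and 66.1 ± 7.25 CPM in control, a change of -0.75 ± 0.11 (adjusted p = 0.000281 by edgeR). Xpo5, which exports the hairpins, was at -0.46 ± 0.09 (adjusted p = 0.00135). Ago2, the slicing Argonaute, was the other lower gene (-0.46 ± 0.17), and Ago4 (0.43 ± 0.11) and Pum2 (0.30 ± 0.10) were the higher genes.

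Malat1, a nuclear transcript held in splicing speckles, had 165, 284, 560, 296 and 432 CPM in fibrosis 1 to 5, against 281, 326, 463, 282 and 355 CPM in control 1 to 5. Fibrosis held both the lowest and the highest library, a 3.41-fold span against 1.64-fold in control. The log2 fold change was 0.03 ± 0.28 (adjusted p = 0.954), and its sign turned under 13 of the alternatives without passing in any. Mirt1 had the same order, with 14.2, 20.8, 43.3, 24.7 and 37.5 CPM in fibrosis 1 to 5, against 21.2 to 32.3 CPM in control. Its change of 0.08 ± 0.26 did not pass either and likewise turned sign.

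Neat1, the RNA on which paraspeckles assemble, had 80.9, 105, 189, 179 and 204 CPM in fibrosis 1 to 5, against 95.2, 110, 111, 120 and 101 CPM in control 1 to 5. These are counts in polyadenylated RNA over the whole gene, with a listed length of 20771 bases. Neat1 transcripts of different lengths were not told apart. Fibrosis 3, 4 and 5 lay above all controls, fibrosis 1 lay below them and fibrosis 2 among them. The log2 fold change of 0.50 ± 0.22 did not pass (adjusted p = 0.0993 by edgeR). It passed with no filter on low counts (0.43) and without fibrosis 1 (0.65, adjusted p = 0.00797; 0.00418 to 0.471 over its alternatives). In Malat1, Mirt1, Neat1, Mir142hg and Mir17hg alike, fibrosis 1 was the lowest library of all 10.

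**Figure D4:**
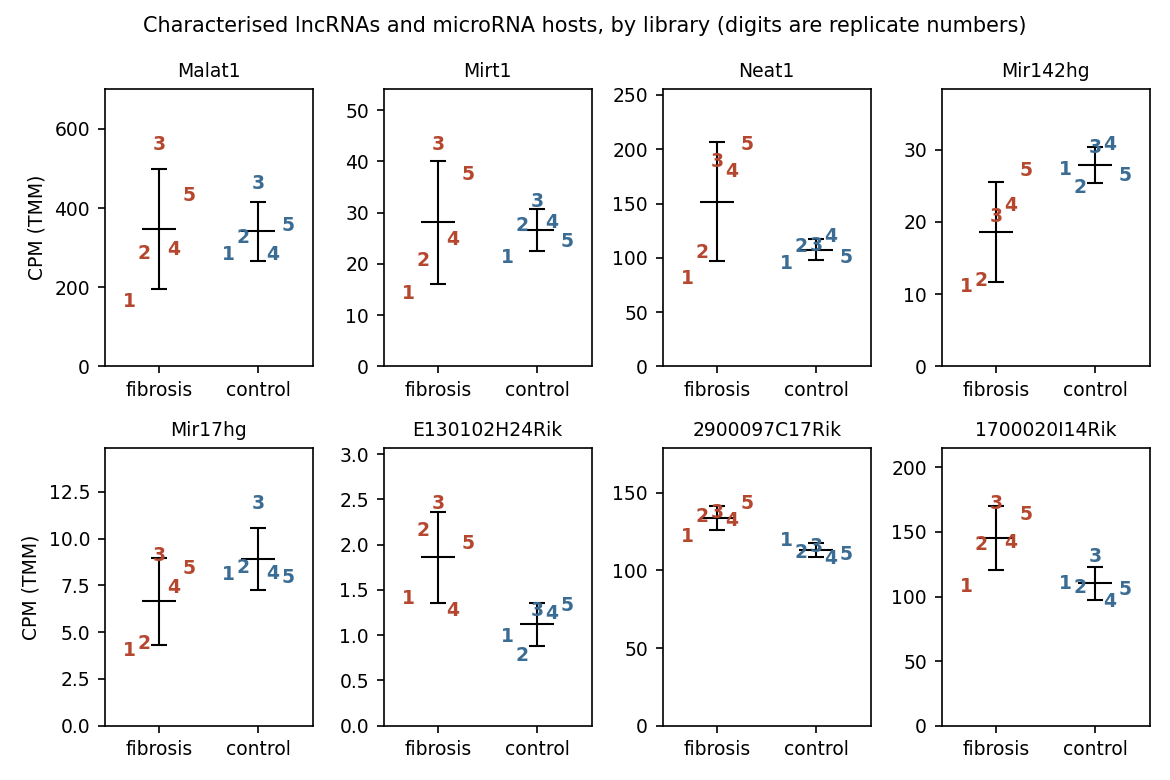
CPM of 8 characterised long noncoding RNA genes and microRNA hosts in each library, with fibrosis left of control; digits are library numbers, and the bars show the mean ± SD of 5 libraries. Fibrosis libraries spread more widely than controls for Malat1 (3.41-fold against 1.64-fold), Neat1 (2.52-fold against 1.26-fold) and Mir142hg (2.45-fold against 1.24-fold).

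The wider spread was common among members. Over the 29 members with at least 10 CPM, the median coefficient of variation was 23.0% in fibrosis and 12.4% in control, and over all tested genes at that level 15.2% in fibrosis and 8.34% in control. The share of each library's counts that fell in the 185 members was 0.173% to 0.285% in fibrosis and 0.190% to 0.231% in control. Fibrosis 1 held the lowest share of all libraries and fibrosis 3 the highest.

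Genes for proteins of the bodies that these RNAs occupy were set beside them, where 17.2% of all tested genes were lower. Of 15 paraspeckle protein genes, 2 were lower and 0 higher, a share no larger than the background (median -0.10): Smarca4 (-0.55 ± 0.13), an ATPase of chromatin remodelling, and Ewsr1 (-0.34 ± 0.09), an RNA-binding protein. The core proteins Nono (-0.09 ± 0.07) and Sfpq (-0.10 ± 0.11) did not pass. Of 16 nuclear speckle genes, 7 were lower and 0 higher (median -0.24). The splicing factor genes Srsf2 (-0.69 ± 0.08, adjusted p = 7.02e-05 by edgeR) and U2af1 (-0.49 ± 0.08, adjusted p = 0.000445) had the smallest p. With library size only, 6 paraspeckle and 9 nuclear speckle genes were lower and 0 higher, where 23.1% of all tested genes were lower.

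2900097C17Rik, known as Norad, is a cytoplasmic RNA that binds Pumilio proteins and helps keep the genome stable. It had 122, 135, 137, 132 and 143 CPM in fibrosis 1 to 5, against 119, 112, 116, 108 and 110 CPM in control 1 to 5. The groups did not overlap, and the rise was the smallest of all calls, 0.24 ± 0.07 on the log2 scale (adjusted p = 0.0194 by edgeR). It lost its call with library size only (0.14, adjusted p = 0.185, over a range of 0.00487 to 0.306), with no filter, and without control 2, 4 or 5. A stretch of 51.6% of it has a near-identical copy in Gm7292, which had 0.306 CPM in fibrosis and 0.290 CPM in control.

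1700020I14Rik, known as Cyrano, is an RNA that triggers the decay of miR-7. It had 108, 140, 172, 142 and 164 CPM in fibrosis 1 to 5, against 110, 107, 131, 96.5 and 106 CPM in control 1 to 5. Fibrosis 1 lay among the controls and the other fibrosis libraries lay above all of them. The log2 fold change was 0.40 ± 0.12 (adjusted p = 0.0232 by edgeR), but the call was lost in 9 of 22 alternatives (highest adjusted p = 0.105), among them the fits without fibrosis 3 or 5 or control 1, 2, 4 or 5. Zswim8, whose protein carries out such decay, was at -0.12 ± 0.11 and did not pass.

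Epb41l4aos, which holds a small nucleolar RNA gene, averaged 22.5 ± 4.68 CPM in the fibrosis group and 15.7 ± 1.99 CPM in the controls (SD, n = 5 each). Its log2 fold change of 0.52 ± 0.15 passed (adjusted p = 0.0134 by edgeR), and without fibrosis 4 and 5 it was 0.31 and did not (adjusted p = 0.0719, over a range of 0.00457 to 0.0719). Gm26917, a single-exon gene listed with ribosomal repeat genes, had 223, 143, 166, 174 and 167 CPM in fibrosis 1 to 5, against 112, 126, 111, 136 and 102 CPM in control 1 to 5. The change was 0.57 ± 0.12 (adjusted p = 0.00237). The 2 other genes of that list, Gm42418 and AY036118, had 0 counts in every library.

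Gm10076, highest of all in FPKM, is a pseudogene in RefSeq, and 99.7% of its transcript matches the ribosomal protein gene Rpl41. It averaged 46.0 ± 19.9 CPM in fibrosis and 31.1 ± 10.7 CPM in control and did not pass (0.56 ± 0.32, adjusted p = 0.190 by edgeR), while Rpl41 was higher at 0.50 ± 0.17 (adjusted p = 0.0313). How far reads of the 2 were kept apart in counting was not tested. In all, 14 members had at least 50% of their longest transcript in a copy of at least 95% identity, and 4 of these were called (Gm6712, Gm42047, 4833403J16Rik and 2900097C17Rik).

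Neighbouring coding genes were set beside the members, since many long noncoding RNAs start next to one. Of 140 tested members with a tested nearest coding gene, 44 started within 5 kb of it. Both genes were called in 5 of these pairs, in the same direction in 3, and the sign was the same in 26 of 44. Among the 23 pairs that start within 1 kb in opposite directions, the sign was the same in 16, and over the 31 pairs more than 50 kb apart it was the same in 16. In 8 of these 31 distant pairs both genes were called, in the same direction in 5, so pairs with both called were not particular to near neighbours. Of the tested members 32.2% were called, and of all tested genes 35.7%.

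Of the 5 pairs within 5 kb in which both genes were called, 4 are named, after their values were seen. Gm43672 (0.53 ± 0.12) and Tbl1xr1 (0.64 ± 0.10), a subunit gene of the NCoR corepressor complex, start 510 bases apart, and 1700086O06Rik fell beside Dele1. In the other 2 pairs the directions were opposite. Gm26910 (1.03 ± 0.28) and the nucleoporin gene Seh1l (-0.23 ± 0.08) start 19 bases apart. Gm43904 had 0.428, 0.739, 1.14, 0.952 and 0.911 CPM in fibrosis 1 to 5, against 1.80, 1.82, 2.93, 2.55 and 3.70 CPM in control 1 to 5 (-1.61 ± 0.30, adjusted p = 0.0012 by edgeR), while the platelet receptor gene Gp9, 1929 bases away on the same strand, was at 1.77 ± 0.42 (adjusted p = 0.00758).

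**Figure D5:**
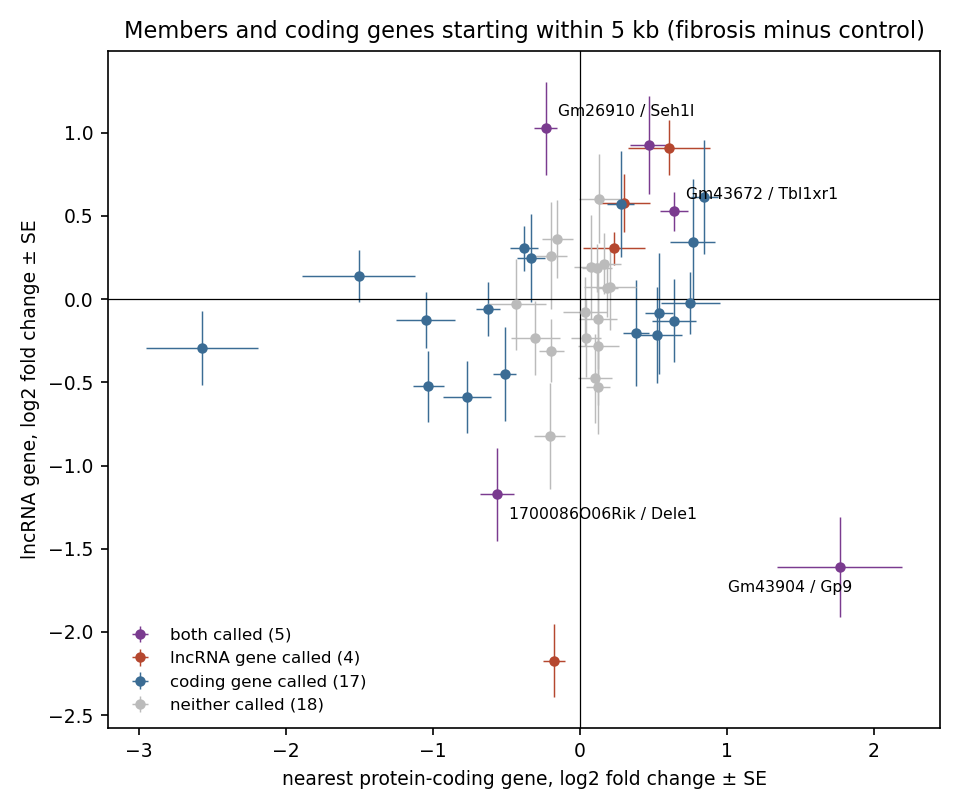
Each point is 1 of the 44 pairs of a long noncoding RNA gene and the coding gene that starts within 5 kb; the horizontal axis gives the log2 fold change of the coding gene and the vertical axis that of the noncoding gene, both fibrosis minus control, with bars of ± 1 SE. Both genes were called in 5 pairs, of which 4 are named in the plot and 3 lie in the same direction; the sign was the same in 26 of 44.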

How the data were processed

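Polyadenylated RNA of splenic B cells was sequenced in 5 fibrosis and 5 control libraries, per the labels' protocols, with random hexamer priming. The submitters' processing notes name GRCm38 (mm10). The sources used here name no aligner or counter and do not say whether strand was used. The authors deposited read counts per gene, not normalised, and FPKM. Each FPKM is the count over listed length and library total, with 1 scaling factor for all genes of a library (0.935 to 1.07, worked out from the values).

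The members and the gene lists were chosen with earlier results of these data known. All genes were tested together from the deposited counts in edgeR 4.0.16 (R 4.3.3): filterByExpr at its defaults, TMM scaling, robust quasi-likelihood test without covariates, Benjamini-Hochberg adjustment over 14283 genes, called at an adjusted p under 0.05. The SE of a log2 fold change is its size over the square root of the F statistic. The biological coefficient of variation was 0.183. The code was tested on several random draws of simulated counts, and in some of them the share of false calls was above the adjusted p threshold. Members were named by a rule: the 10 largest rises and 10 largest falls among calls whose groups do not overlap, the 5 highest in FPKM, and all members of lists of known long noncoding RNAs (nuclear bodies, imprinted genes, microRNA hosts, genome stability, immune, ribosomal repeat). No listed imprinted gene was a member. Others named are said to be so where they appear, or are called members that a sentence counts.

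Exons and copies were read from GENCODE vM21, which held 184 of the 185 gene IDs, 178 with identical coordinates, and transcripts were compared with BLAST. Promoters and microRNAs are RefSeq's, and of genes with several starts the promoter of lowest coordinate was taken. The nearest coding gene is the one with the nearest start. Alternatives were other scalings, filters and level thresholds, DESeq2 1.42.0, limma 3.58.1 (voom, or log2 of FPKM plus 1 or 0.1), the replicate number as a block, leaving out each library, and, added after the data were seen, leaving out fibrosis 4 and 5. Values of 1 coding neighbour are not reported here.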

Additional observations from a re-analysis of the deposited data

Results flagged for a closer look

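Values are given for named genes in which 1 library of a group of 5 lay far from the other 4, measured as its gap to the nearest other library divided by the range of the group (over 0.71). Chance alone flags about 1 in 20 groups. In fibrosis, Gm30411 was highest in fibrosis 5 at 4.29 CPM with the next library at 1.85 CPM (ratio 0.810). Gm11274 was highest in fibrosis 5 at 2.15 CPM, next 1.29 CPM (0.714). Lockd was highest in fibrosis 4 at 9.60 CPM, next 6.12 CPM (0.721). In control, Lockd was lowest in control 3 at 9.20 CPM, next 11.7 CPM (0.726). Mir17hg was highest in control 3 at 11.9 CPM, next 8.47 CPM (0.863), and Gpr141b was highest in control 3 at 5.69 CPM, next 4.68 CPM (0.762). Gm33280 was highest in control 5 at 10.9 CPM, next 8.19 CPM (0.831). The calls of Gm30411, Gm11274, Lockd, Gpr141b and Gm33280 were made again in each of the 10 fits that left out 1 library.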

How the results depend on the processing

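No called member changed direction under any alternative. The 41 higher calls became 24 with limma on log2 FPKM plus 1 without a filter, 26 without fibrosis 4 and 5, 26 among members with at least 2 FPKM and 20 at an adjusted p under 0.01, and the 15 lower calls became 7 among members with at least 2 FPKM. Over all tested genes the higher calls were 2654 of 14283 in the main fit, 1778 of 33548 with that limma fit and 2688 of 14607 without fibrosis 4 and 5. Leaving out 1 library gave 28 to 50 members higher and 15 to 21 lower. Of the 14423 to 14499 genes tested in those fits, 2052 to 2914 were higher and 2083 to 2582 lower. With the replicate block 37 members were higher and 17 lower (2677 and 2534 of all 14283 tested genes), and Gm10076 passed (0.53). Samples of the same number did not deviate together throughout (r = 0.136, -0.209, 0.623, 0.399 and -0.409 for numbers 1 to 5, and 2 of 5 matched their own number best). These 5 correlations cannot settle whether some samples of the same number were handled together.

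Malat1 was never called and turned negative with library size only (-0.072), no filter (-0.040), DESeq2 (-0.0012), voom (-0.093), limma on log2 FPKM plus 1 with and without a filter (-0.084 in both) or plus 0.1 (-0.088), the block (-0.065) and without fibrosis 4 and 5 (-0.014), and lay between -0.24 and 0.20 without 1 library. Mirt1 turned negative with library size only (-0.022), voom (-0.12), FPKM plus 1 with and without a filter (-0.013) or plus 0.1 (-0.037), the block (-0.013) and without fibrosis 4 and 5 (-0.023), and lay between -0.16 and 0.24 without 1 library. Of the other single-gene values, 688 kept direction and side of the threshold, 41 lost a call and 17 gained one. Adding 1 to FPKM shrinks the changes of low members (1700001L05Rik to -1.05). The 110 tested members under 5 CPM had a median SE of 0.29, against 0.18 in the other 64. The cause of these shifts was not tested.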
